A study of Mus musculus with 5 samples.

Results

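Transcripts of 40 macrophage and myeloid genes were followed in the gastrocnemius muscle of immunodeficient mice. The members are a fixed list of symbols for pan-myeloid, resident, recruited, phagocytic, lipid-handling and antigen-presenting markers, and all 40 were found among the 35275 genes of the table by their identifiers. The animals were 12-week-old females of the NSG strain, whose genotype field reads Wild Type. NSG mice carry scid and interleukin-2 receptor gamma-chain mutations and lack mature T, B and natural killer cells, while monocytes and macrophages remain. Every mouse had received vesicles of MCF-10A/miR122 cells, a human mammary epithelial line, by tail vein 2 times a week for 5 weeks at about 10 µg a dose, and muscle was taken 2 days after the last dose. The labels give 5 libraries of this 1 group, so no untreated muscle stands beside them and the spread is that between these samples, which the labels do not state to be separate animals.

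Muscle holds macrophages in the connective tissue between its fibres. Resident macrophages are known for the scavenger receptors Mrc1 and Cd163, the hyaluronan receptor Lyve1 and the folate receptor Folr2. Monocytes that enter from blood use the chemokine receptor Ccr2, whose ligand is Ccl2, and after injury they become phagocytes that clear fibre debris. Macrophages also load peptides on class II major histocompatibility molecules, formed by H2-Aa and H2-Ab1 with the help of the invariant chain Cd74. The NOD background of NSG carries class II alleles that differ in sequence from the C57BL/6 reference, and their effect on read assignment was not tested.

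Level is given in FPKM, the reads of a gene scaled for its length and for the total reads of the library. The libraries held 16674504 to 25407988 reads, and library 3 had the fewest. Whether library 3 stood apart from the others over the whole transcriptome was not tested. The muscle fibre markers Acta1 (32368 ± 1983 FPKM, SD, n = 5) and Tnnt3 (15842 ± 3062) bore out the tissue label. All 40 members were above 0 in all 5 libraries, with at least 4 reads each, but 9 had a mean below 1 FPKM. Of the 31 at 1 FPKM or more, 5 reached it only through library 3.

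Library 3 held the highest level of every one of the 40 myeloid genes. Over all genes above 0, 33.8% were highest in library 3, and for the 10569 genes whose mean in the other 4 libraries reached 1 FPKM the share was 36.2%. The summed level of the 40 genes was 174, 220, 731, 167 and 175 FPKM in libraries 1 to 5. They took 0.109% of the reads of library 3 and 0.0228% to 0.0324% of the reads of the others. In library 3, 37 members were at least 2-fold above every other library, against 7.75% of all genes above 0. Library 3 does not decide which genes enter when the other 4 libraries must average 1 FPKM or more. Of the 26 members that did, 24 were at least 2-fold above every other library, against 2.31% of genes. The gap between library 3 and its neighbour took over 0.71 of the whole range for 21 of the 26, against 5.57%. The median of all 40 members stood 4.77-fold over the median of the other libraries, and that of the 31 members at 1 FPKM or more stood at 4.64-fold. The median gene at 1 FPKM or more stood at 1.06-fold. In such bulk tissue, more cells of a type and more RNA per cell cannot be told apart. With libraries rescaled by median of ratios, 39 members stayed highest in library 3 and Timd4 was highest in library 5.

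**Figure D1:**
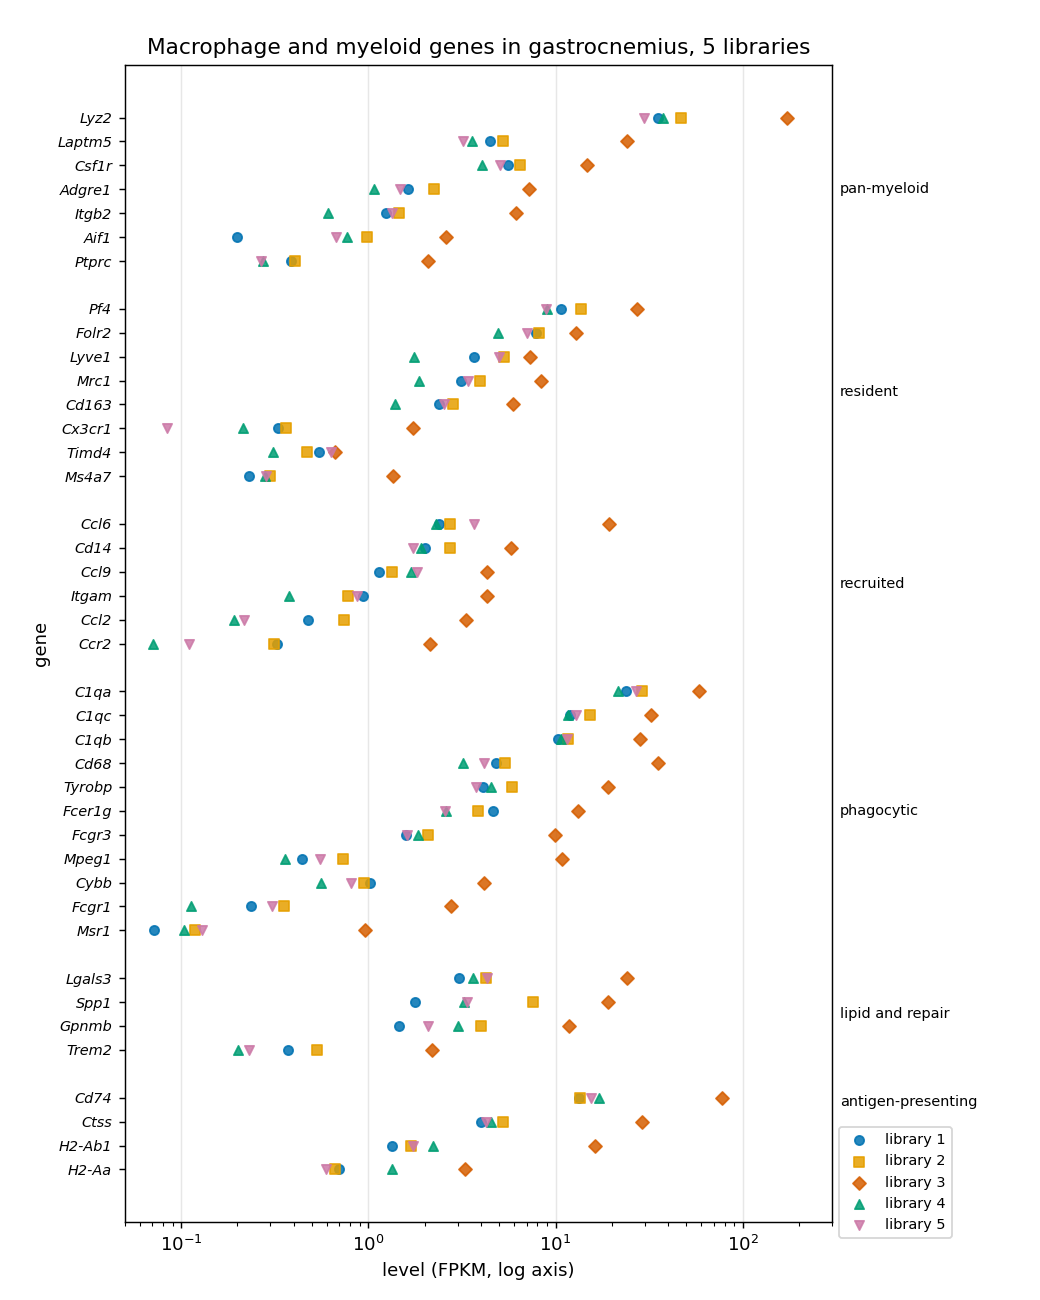
Level of each of the 40 genes (rows, grouped by role) in FPKM on a log axis, with 1 symbol per library. The diamond of library 3 is the rightmost symbol in every row, far from the others for Mpeg1 and close to library 5 for Timd4.

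The pan-myeloid genes covered a wide range of levels. Lyz2, the lysozyme of macrophages and neutrophils (chromosome 10, 117277331 to 117282321), had the highest mean of the members at the deposited lengths, at 35.4, 46.8, 172, 37.6 and 29.7 FPKM in libraries 1 to 5. Divided by the length of its principal coding transcript, its mean would be 30.9 FPKM, below that of C1qa at 31.9. Its near-identical copy Lyz1 was at 0.863 to 1.76 FPKM, and the sources used here do not say to which copy shared reads went. Csf1r, the receptor for the growth factor that macrophages need to survive, was at 5.56, 6.44, 14.7, 4.05 and 5.03 FPKM. Library 3 was thus 2.28-fold above the next library for Csf1r and 3.67-fold above it for Lyz2, the smallest and the median value of the 7 pan-myeloid genes. Laptm5, a lysosomal membrane protein of blood cells, was at 24.1 FPKM in library 3 against 3.21 to 5.25, and Adgre1, which encodes the F4/80 antigen, was at 7.21 against 1.07 to 2.24. The integrin chain Itgb2 was at 6.14 against 0.608 to 1.45 FPKM. Ptprc, the leukocyte common antigen CD45, was low at 2.09 against 0.266 to 0.406 FPKM, and 5.16-fold over the next library. Aif1, the calcium-binding protein Iba1, was at 2.60 against 0.199 to 0.987 FPKM, and it rested on 4 to 38 reads a library.

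The 3 least elevated of the 40 genes in library 3 were markers of resident macrophages. Folr2 was at 7.84, 8.15, 12.9, 4.90 and 7.04 FPKM in libraries 1 to 5, Lyve1 at 3.65, 5.30, 7.34, 1.75 and 5.01 FPKM, and Timd4, a phosphatidylserine receptor of long-lived resident macrophages, at 0.542, 0.472, 0.662, 0.309 and 0.634 FPKM. Library 3 exceeded the next library by 1.58-fold for Folr2, 1.39-fold for Lyve1 and 1.04-fold for Timd4, the 3 members below 2-fold. For Timd4 the rate of library 3 over the other 4 libraries together was 1.35, with a 95% exact interval of 0.823 to 2.12 that covers counting error only. It was the 1 member whose interval included 1. Lyve1 also marks lymphatic endothelium, whose 6 markers summed to 18.3 FPKM in library 3 against 10.4 to 17.3.

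The scavenger receptors of the group were more elevated than these. Mrc1, the mannose receptor CD206, was at 3.13, 3.94, 8.36, 1.87 and 3.40 FPKM, and Cd163, the receptor for haptoglobin-bound haemoglobin, at 2.39, 2.82, 5.95, 1.38 and 2.53. Both were 2.1-fold over the next library (2.12 and 2.11), and library 4 was lowest for both. Pf4, a chemokine of platelets that muscle macrophages also express, was at 27.3 FPKM in library 3 against 8.87 to 13.6. The 6 other platelet and megakaryocyte markers summed to 1.57 to 2.34 FPKM, with library 3 at 2.18 inside that range. Cx3cr1, the fractalkine receptor, and Ms4a7, a membrane protein of macrophages, were scarce, at 1.74 against 0.0844 to 0.362 FPKM and 1.35 against 0.230 to 0.299 FPKM. These 2 were the members of the resident group above 4-fold, at 4.80 and 4.50.

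The 6 genes listed as recruited markers were 2.11-fold to 6.56-fold over the next library in library 3. In the other 4 libraries Ccr2, Ccl2 and Itgam were below 1 FPKM, and Ccl6, Ccl9 and Cd14 were above it. Ccr2 was at 0.326, 0.312, 2.14, 0.0705 and 0.110 FPKM in libraries 1 to 5, and Ccl2, its ligand, at 0.478, 0.738, 3.34, 0.191 and 0.215. Library 3 stood 6.56-fold over the next library for Ccr2 and 4.52-fold for Ccl2. Both genes were lower in libraries 4 and 5 than in libraries 1 and 2. Itgam, the integrin chain CD11b, was at 4.30 FPKM in library 3 against 0.376 to 0.936. The chemokine genes Ccl6 and Ccl9 lie near each other on chromosome 11, Ccl9 at 83572919 to 83578636 and Ccl6 at 83587882 to 83593087. Ccl6 was at 19.2 FPKM against 2.30 to 3.66, and Ccl9 at 4.31 against 1.15 to 1.82. Cd14, the co-receptor for bacterial lipopolysaccharide, was at 2.0, 2.75, 5.80, 1.92 and 1.73 FPKM and was the least elevated of the 6, at 2.11-fold.

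Among genes of phagocytes, the range was the widest of any role. Mpeg1, the pore-forming perforin-2 of macrophages (chromosome 19, 12460779 to 12465283), was at 0.443, 0.734, 10.8, 0.358 and 0.554 FPKM. Library 3 was 14.7-fold above the next library, the highest ratio of the 40 genes, and its rate over the other 4 libraries together was 21.2 (95% exact interval 18.1 to 24.8, counting error only). Cd68, a glycoprotein of phagocyte lysosomes (chromosome 11, 69664213 to 69666153), was at 4.79, 5.40, 35.3, 3.21 and 4.16 FPKM, 6.55-fold over the next library. Fcgr1, the high-affinity receptor for immunoglobulin G, was at 2.76 FPKM in library 3 against 0.113 to 0.354, from 119 reads against 7 to 20. The low-affinity receptor Fcgr3 was at 9.97 against 1.59 to 2.08 FPKM. Their signalling adaptor Fcer1g was at 13.3 against 2.57 to 4.66 FPKM, and Tyrobp, the adaptor DAP12, at 19.0 against 3.77 to 5.84. The scavenger receptor Msr1 had the lowest mean of the members at the deposited lengths, at 0.955 against 0.0719 to 0.130 FPKM. Divided by the length of its principal coding transcript, its mean would be 0.705 FPKM, above that of Timd4 at 0.524. Cybb, the catalytic subunit of the NADPH oxidase, was at 4.16 against 0.556 to 1.02 FPKM.

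The 3 chains of C1q, which starts the classical complement pathway, were elevated alike and less than any other phagocyte gene. Their genes lie side by side on chromosome 4, C1qb at 136880129 to 136886187, C1qc at 136889804 to 136893065 and C1qa at 136895917 to 136898803. C1qa was at 23.8, 28.9, 58.4, 21.5 and 26.9 FPKM in libraries 1 to 5, C1qb at 10.3, 11.7, 28.1, 10.8 and 11.5, and C1qc at 11.9, 15.2, 32.4, 11.6 and 12.8. Library 3 lay 2.02-fold, 2.40-fold and 2.13-fold above the next library for C1qa, C1qb and C1qc, and no other phagocytic member was below 2.84-fold. Without library 3, C1qb had a coefficient of variation of 6.03% against 5.68% from counting error averaged over the 5 libraries. For C1qa it was 13.1% against 3.90%, and for C1qc 12.7% against 5.02%.

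Genes of lipid-handling and repair macrophages varied in the other libraries too. Spp1, the secreted matrix protein osteopontin, was at 1.77, 7.59, 19.1, 3.26 and 3.37 FPKM, and Gpnmb, a glycoprotein of lysosome-rich macrophages, at 1.46, 3.99, 11.8, 3.02 and 2.08. Library 2 was second for both, and their coefficients of variation without library 3 were 62.7% and 42.0%. Lgals3, the galactose-binding galectin-3, was at 24.2 FPKM in library 3 against 3.04 to 4.33. Trem2, a lipid receptor that signals through Tyrobp, was at 2.19 against 0.202 to 0.530 FPKM. The value of Trem2 is divided by a length of 4784 bases, 4.40 times that of its principal coding transcript in GENCODE M21 (1088 bases). Reads scaled to 1088 bases would give 9.65 FPKM in library 3 and 0.887 to 2.33 in the others. Of the 40 members, 32 had a length within 10% of that transcript, and Ms4a7 and Msr1 also lay far above it, at 2.70 and 2.56 times, while Lyz2 lay at 0.481 times.

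Antigen-presenting genes were among the more elevated, except H2-Aa. Cd74 (chromosome 18, 60803848 to 60812652) was at 13.3, 13.5, 77.2, 17.2 and 15.5 FPKM in libraries 1 to 5. H2-Ab1, the class II beta chain (chromosome 17, 34257689 to 34269419), was at 1.33, 1.69, 16.3, 2.22 and 1.72 FPKM, and H2-Aa, the alpha chain beside it (34282744 to 34287823), at 0.694, 0.667, 3.28, 1.33 and 0.591 FPKM. Library 3 was 7.35-fold over the next library for H2-Ab1, 4.49-fold for Cd74 and 2.46-fold for H2-Aa. Library 4 was second for all of these genes. Ctss, the protease that trims the invariant chain, was at 28.8 FPKM in library 3 against 3.99 to 5.22.

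Over the roles, the median member was elevated 2.49-fold over the median of the other libraries for resident markers. It was elevated 4.70-fold for pan-myeloid, 4.75-fold for phagocytic, 5.95-fold for antigen-presenting, 5.94-fold for lipid and repair and 6.36-fold for recruited markers. The ranges overlapped, from 1.31 to 6.42 for resident and from 2.84 to 10.1 for recruited markers. The roles were assigned from general knowledge with earlier results known, 1 library carries the comparison, and the difference between roles was not tested. With a pseudocount of 1 added, the log2 elevation of recruited markers was 1.46, below pan-myeloid (1.64) and phagocytic markers (1.56), and for members at 1 FPKM or more it was 1.98 against 2.22 and 2.14. Resident markers had the lowest median in both, at 0.94 and 1.27.

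**Figure D2:**
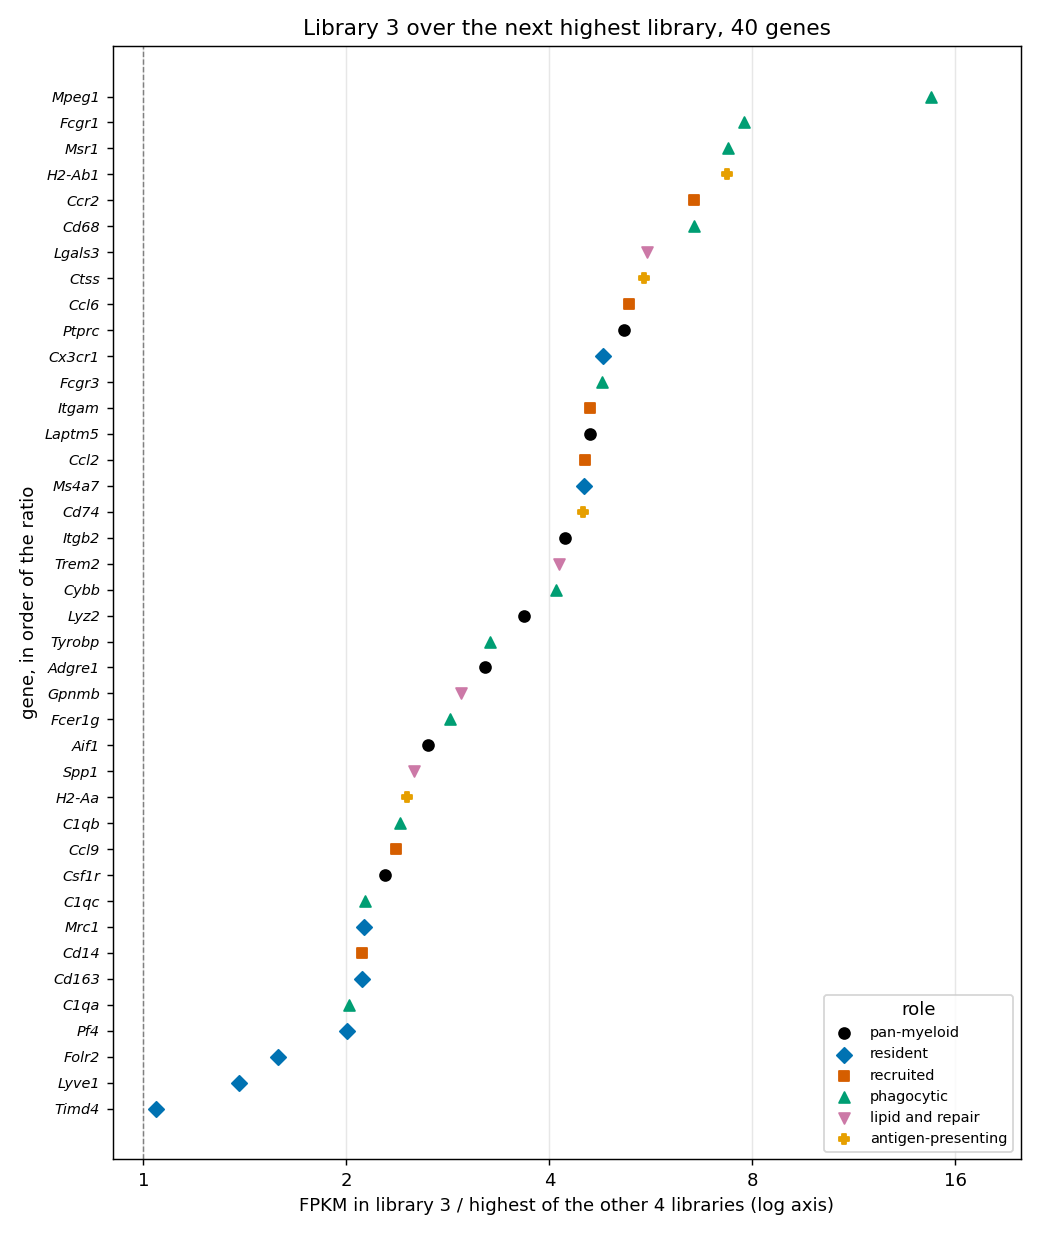
Ratio of the FPKM in library 3 to the highest of the other 4 libraries (log axis) for the 40 genes in order, with colour and symbol for the role. Mpeg1 leads at 14.7, and the resident markers Pf4, Folr2, Lyve1 and Timd4 form the lower end, from 2.01 to 1.04.

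Promoter sequences were matched in RefSeq (GRCm38.p6) for 29 of the 40 genes and searched in the 250 bases before the start site on both strands. GAGGAA, the core recognised by the myeloid factor PU.1, was found in 14 of the 29 genes, against 25.9% of 27025 genes. TGATTGG, the Y box of class II promoters, was found in H2-Aa, Cd68 and Spp1, against 8.38% of genes. CACGTG, an E-box of lysosomal genes, was found in 0 of 29 genes (6.86% of all) and TGACTCA, the AP-1 site, in Cd68 and Folr2 (5.16% of all). The promoters below, read 5′ to 3′ on the strand of each gene with the PU.1 core and the Y box on either strand in capitals, set the elevated genes Mpeg1, Cd68 and Fcgr1 and the Y box gene H2-Aa beside the resident markers Mrc1 and Timd4. They lie at chr19:12460520-12460769 (plus strand, Mpeg1), chr11:69666171-69666420 (minus, Cd68), chr3:96293970-96294219 (minus, Fcgr1), chr17:34287824-34288073 (minus, H2-Aa), chr2:14229164-14229413 (plus, Mrc1) and chr11:46810549-46810798 (plus, Timd4).
Mpeg1: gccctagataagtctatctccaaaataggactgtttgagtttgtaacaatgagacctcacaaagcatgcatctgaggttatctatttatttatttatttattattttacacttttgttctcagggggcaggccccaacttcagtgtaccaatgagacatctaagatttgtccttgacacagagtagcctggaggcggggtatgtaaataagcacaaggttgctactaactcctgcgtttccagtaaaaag
Cd68: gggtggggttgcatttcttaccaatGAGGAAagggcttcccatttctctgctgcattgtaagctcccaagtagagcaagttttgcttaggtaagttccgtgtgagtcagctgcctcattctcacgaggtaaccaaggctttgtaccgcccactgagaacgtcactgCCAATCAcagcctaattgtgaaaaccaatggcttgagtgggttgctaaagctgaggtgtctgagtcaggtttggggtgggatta
Fcgr1: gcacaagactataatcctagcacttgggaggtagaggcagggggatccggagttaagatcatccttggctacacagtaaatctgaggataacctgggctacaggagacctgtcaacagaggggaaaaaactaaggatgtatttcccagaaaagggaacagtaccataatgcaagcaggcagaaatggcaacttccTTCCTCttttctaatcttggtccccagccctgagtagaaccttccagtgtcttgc
H2-Aa: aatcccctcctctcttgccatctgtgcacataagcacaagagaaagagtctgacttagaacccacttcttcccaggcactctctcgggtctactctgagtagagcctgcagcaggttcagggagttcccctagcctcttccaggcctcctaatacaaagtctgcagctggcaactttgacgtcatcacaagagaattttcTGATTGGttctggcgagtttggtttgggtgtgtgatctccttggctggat
Mrc1: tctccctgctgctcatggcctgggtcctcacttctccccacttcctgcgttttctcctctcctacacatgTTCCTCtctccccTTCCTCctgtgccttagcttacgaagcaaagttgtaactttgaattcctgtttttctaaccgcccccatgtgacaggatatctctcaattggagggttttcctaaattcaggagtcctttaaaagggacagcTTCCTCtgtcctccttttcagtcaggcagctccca
Timd4: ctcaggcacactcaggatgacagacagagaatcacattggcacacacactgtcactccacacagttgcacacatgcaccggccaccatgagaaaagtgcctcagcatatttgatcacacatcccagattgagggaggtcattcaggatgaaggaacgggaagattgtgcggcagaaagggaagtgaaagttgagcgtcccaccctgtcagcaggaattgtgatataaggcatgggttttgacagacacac
Mpeg1, the most elevated gene, held neither word, while Mrc1, elevated 2.12-fold, held GAGGAA 3 times. Some RefSeq starts lay far inside the GENCODE gene, by 18447 bases for Cybb, 6109 for Lgals3 and 5532 or more for Fcgr3, and by 11863 for 1 of the 2 starts of Folr2. The matches of Fcgr3 and Folr2 were at such inner starts. A match is a description of the letters and not a site of binding.

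Without library 3, the members spread less, and more of them than of all genes were highest in library 2. The median coefficient of variation of the 40 genes was 99.4% over 5 libraries and 23.0% over the other 4, against 8.30% from counting error. For the 26 members at 1 FPKM or more without library 3 it was 21% over those 4 libraries, against 14.1% for all such genes. Of the 26 members at 1 FPKM or more without library 3, 20 were highest in library 2, against 40.8% of 10569 genes. The 11 members lowest in library 4 (42.3%) were near the share of all genes, 43.6%. The genes not highest in library 2 were Fcer1g (library 1), Cd74 and H2-Ab1 (library 4) and Lgals3, Ccl6 and Ccl9 (library 5).

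The test of spread asked whether a gene varied more than genes of its level. It divides the variance of the log2(FPKM + 1) value by its abundance trend (limma, one-sided F test, Benjamini-Hochberg adjustment over 10710 genes, threshold 0.05). No member passed after adjustment, as for 0.0% of all genes, and the smallest adjusted p of the 31 members tested was 0.640. In limma's test without adjustment, 24 of the 26 members at 1 FPKM or more in the other 4 libraries were under 0.05, against 5.43% of 10519 such genes, the exceptions being Ccl9 and Folr2. The largest ratio of variance to trend among members was that of Cd68 at 45.4. Without library 3, 3 of 26 members were under 0.05 before adjustment, against 5.32% of genes, and 0 passed after adjustment, against 0.0378% of genes. A chi-square test of reads found more than counting error for 31 of 31 members, near the 87.9% of all genes. On data simulated for these 10710 genes, adjustment recovered 2% of genes with 8 times the SD and 70% with 64 times the SD.

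For 20 pairs of members, log2 ratios were taken within each library on the log2(FPKM + 1) scale, where the library total enters only through the pseudocount. Of these, 16 kept 1 sign in all 5 libraries, each with p = 0.062 when signs were flipped in an exact permutation test, two-sided (0.078 after adjustment over the 20 pairs). That is the smallest p that 5 libraries allow, so no pair could pass 0.05. The resident markers Folr2 and Lyve1 exceeded Ccr2, by 2.60 ± 0.30 and by 1.86 ± 0.49 (SD, n = 5). The pseudocount shrinks ratios of low genes, and at 0.1 these means were 4.21 and 3.33. Over 5 libraries Cx3cr1, Timd4 and Ms4a7 had means of 0.545, 0.524 and 0.488 FPKM, below Ccr2 at 0.591. Without library 3 they were at 0.247, 0.489 and 0.273 FPKM, above Ccr2 at 0.205. Pf4, Mrc1 and Cd163 had higher means than Ccr2 in both cases. The ratio of Folr2 to Ccr2 was lowest in library 3, at 2.15 against 2.46 to 2.86, while that of Lyve1 to Ccr2 was lower in library 4 (1.36) than in library 3 (1.41). Mrc1 exceeded Itgam by 1.14 ± 0.24 (1.74 at a pseudocount of 0.1), and Cd163 lay below Mrc1 by a log2 ratio of -0.33 ± 0.07. Cx3cr1 and Ccr2 had a log2 ratio of 0.00 ± 0.14 (p = 0.938, exact permutation test). Outside library 3 both were at 0.362 FPKM or less, where a pseudocount of 1 pulls the ratio to 0. At 0.1 it was 0.12 ± 0.46, and in library 4 the levels were 0.214 and 0.0705 FPKM. Equal levels can therefore not be read from this ratio or its p.

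The C1q chains kept close ratios in every library. C1qa exceeded C1qb by 1.10 ± 0.12 and C1qc exceeded C1qb by 0.20 ± 0.09, with library 3 inside the range of the others for both. Itgb2 exceeded its partner Itgam by 0.33 ± 0.12, Csf1r exceeded Adgre1 by 1.2 ± 0.16, and Fcgr3 exceeded Fcgr1 by 1.23 ± 0.22 (2.33 at a pseudocount of 0.1). Cd74 exceeded H2-Ab1 by 2.46 ± 0.18. The adaptors Fcer1g and Tyrobp differed by -0.37 ± 0.30, positive only in library 1 (0.15; p = 0.125, exact permutation test).

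At the pseudocount of 1, library 3 lay outside the range of the other libraries for 14 of the 20 pairs, and for 3 it lay far outside. Some pairs share a gene, and the same count was not made for the other libraries or for pairs of other genes. The log2 ratio of Cd68 to C1qa was -0.71 in library 3 and -2.44 to -2.10 in the others. The ratio of H2-Aa to H2-Ab1 was -2.01 against -0.77 to -0.46, and that of Ccl9 to Ccl6 was -1.93 against -0.73 to -0.30. The size of these last 2 gaps depends on the pseudocount. At 0.1 the means over 5 libraries were -1.29 ± 0.62 and -1.10 ± 0.63, and the gaps were not recomputed. H2-Ab1 exceeded Mrc1 in libraries 3 (0.89) and 4 (0.17) and lay below it in the other 3 (mean -0.27 ± 0.77, p = 0.625, exact permutation test). Lyz2 exceeded Cd68 by 2.71 ± 0.36, Gpnmb exceeded Trem2 by 1.52 ± 0.45, and Trem2 lay below Tyrobp by a log2 ratio of -2.17 ± 0.30. At a pseudocount of 0.1, Gpnmb exceeded Trem2 by 2.58 and the ratio of Trem2 to Tyrobp was -3.39. At principal transcript lengths the means were 1.69 for Lyz2 to Cd68, 0.52 for Gpnmb to Trem2 and -1.14 for Trem2 to Tyrobp. The ratio of Gpnmb to Trem2 then no longer had 1 sign in all libraries (p = 0.125, exact permutation test). Lgals3 exceeded Spp1 in 4 libraries and lay below it in library 2, at -0.71 (mean 0.11 ± 0.48, p = 0.625, exact permutation test).

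**Figure D3:**
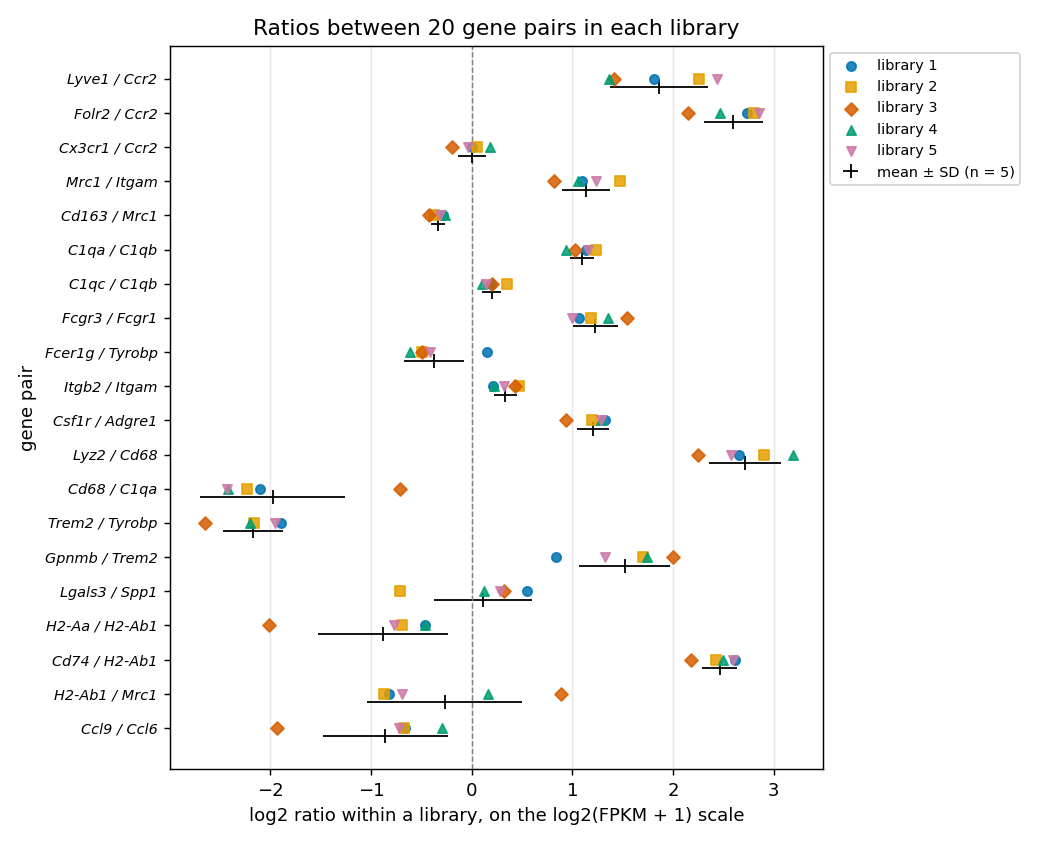
Log2 ratio of each of 20 gene pairs within each library (symbols), with the mean and SD of the 5 libraries as a black tick and bar. At the pseudocount of 1 used here, library 3 stands apart for Cd68 to C1qa (-0.71), H2-Aa to H2-Ab1 (-2.01) and Ccl9 to Ccl6 (-1.93).

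Other genes of the macrophage pathways came from 7 lists, and not all were highest in library 3. Each count of genes highest in that library stands beside a share of 33.8% over all genes above 0. All 15 genes of the NADPH oxidase and of receptor signalling were, but neither of the 2 at 1 FPKM or more in the other 4 libraries, Cyba and Lyn, was 2-fold over the next library. Among them the inhibitory receptor Fcgr2b was at 4.18 FPKM against 0.562 to 1.01, the oxidase subunit Cyba at 26.8 against 10.2 to 17.3 and the kinase Lyn at 2.42 against 1.35 to 2.03. Of the 12 class II pathway genes, 8 were highest in library 3. They include H2-Eb1 at 23.0 against 5.01 to 7.12 FPKM, the protease Lgmn at 63.5 against 16.9 to 26.5, and Ciita, the master regulator of class II transcription, at 0.514 against 0.0415 to 0.0749. Ifi30, a thiol reductase of antigen processing, was at 17.4 FPKM in library 3 and 14.5 in library 4, against 6.32 to 9.20.

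Of 14 growth factor and transcription factor genes, 10 were highest in library 3. Both ligands of Csf1r were highest in library 3, at 1.31-fold over the next library for Csf1 and 1.41-fold for Il34, with Csf1 at 6.10, 6.02, 8.01, 4.47 and 4.77 FPKM and Il34 at 3.18, 3.15, 4.47, 2.41 and 2.13. The myeloid factor Spi1, which encodes PU.1, was at 4.66 FPKM against 0.970 to 1.83, and Cebpa, which adipocytes also express, at 22.1 against 4.96 to 7.33. Maf (33.6 ± 3.26 FPKM) and Cebpb (31.4 ± 7.31) were the most abundant of the list and were not highest in library 3, and Csf2 was at 0 in all libraries. Of 13 lysosomal and lipid handling genes, 10 were highest there with a median of 1.61-fold over the other libraries. Ctsd was at 246 ± 48.4 FPKM, and Lpl, at 168 ± 52.2, was lowest in library 3 (112).

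Of 14 uptake genes, 11 were highest in library 3, and 0 of the 9 at 1 FPKM or more in the other 4 libraries were 2-fold above the next library. Among the scarcer ones, Tlr2 was at 3.24 against 0.366 to 0.752 FPKM, and Havcr2 had 32 reads against 1 to 4. The most abundant were Gas6 at 74.4 ± 7.81 FPKM and Cd36 at 66.7 ± 11.6. Of 14 chemokine genes, 8 were highest there, 0 of the 5 at 1 FPKM or more by 2-fold. Cxcl14 (38.6 ± 5.80 FPKM) and Cxcl12 (20.1 ± 3.22) led the list, and Ccl4 and Cxcl2 were at 0 in all libraries. The monocyte attractant Ccl7 was at 1.42 FPKM in library 3 against 0.0491 to 0.436, from 19 reads against 1 to 8. Of 11 inflammatory mediators, 5 were highest in library 3, against 33.8% of all genes above 0. Among them were Chil3 with 27 reads against 0 to 5 and Arg1 with 23 against 3 to 9. Tgfb1 was at 15.0 FPKM against 5.27 to 6.10, and Retnla was lowest in library 3 at 7.92 against 10.9 to 16.8. The cytokine genes Il1b, Tnf and Il6 were at most 0.442 FPKM in any library, and Il10 was at 0 in all.

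Markers of other immune cells were compared, since some of the 40 genes are made by them too. The 12 neutrophil markers summed to 1.34 FPKM in library 3, against 7.41 and 10.6 in libraries 1 and 2 and 0.886 and 0.529 in libraries 4 and 5. S100a9 was at 3.22 FPKM in library 2 and 0.578 in library 3, and Ly6g was at 0 in all libraries. The markers did not move together, since 3 of the 12 were highest in library 3, against 33.8% of all genes above 0. These were the scarce Csf3r, at 0.431 against 0.0452 to 0.175 FPKM, Cxcr2 and Mmp8. The 8 monocyte markers summed to 135 FPKM in library 3 against 60.8 to 173, a sum made mainly of Nr4a1 (119 ± 44.9 FPKM) and Ace (12.9 ± 2.03). The narrower monocyte markers Ly6c2 and Plac8 were highest in library 3, at 1.75 against 0.426 to 0.866 and 2.84 against 0.0965 to 1.45 FPKM. The 10 dendritic cell markers summed to 5.13 FPKM in library 3 against 2.45 to 3.47, and 5 of the 10 were highest there, against 33.8% of all genes above 0. Cd209a was at 1.29 FPKM in library 3 against 0.212 to 0.412. Zbtb46, at 1.25 ± 0.18, was highest in library 5 (1.48) and at 1.16 in library 3. Clec9a, Batf3, Siglech and Itgae were highest in library 2. The 8 mast cell markers summed to 41.1 FPKM against 22.1 to 35.9, led by Tpsb2 (10.7 ± 2.80) and Mcpt4 (9.34 ± 2.97).

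Lymphoid and eosinophil markers were near 0, with the exception of Ighm. The 10 T cell markers summed to 0.302 to 0.653 FPKM, mostly Cd4 (0.273 ± 0.172), which macrophages can express, with Trac at 0.106 at most and Cd8b1 at 0. The 8 natural killer markers had 0 to 9 reads a library, with Klrd1 and Nkg7 at 0.326 and 0.246 FPKM at most, and Ncr1, Gzma and Prf1 at 0. The 5 eosinophil markers had 0 to 7 reads, with Prg2 and Siglecf at 0.150 and 0.046 FPKM at most and Ccr3 at 0. The B cell markers Pax5 and Blk were at 0 and Cd79b was at 0.286 ± 0.099 FPKM, while Ighm was measured at 57.8 ± 41.7 FPKM. A count of 0 allows up to 3 reads in a library, for counting error only.

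Genes of some other tissues were also highest in library 3, where 33.8% of all genes above 0 were highest. All 10 embryonic or regenerating muscle genes peaked in this library. Of the 8 at 1 FPKM or more in the other 4 libraries, 5 were at least 2-fold over the next, against 2.31% of such genes. Mymk, needed for myoblast fusion, was at 22.1 against 0 to 1.05 FPKM, and Myl4, the embryonic myosin light chain, at 30.4 against 1.65 to 2.85. The ratio of library 3 to the next was 21-fold for Mymk, above the 14.7-fold of Mpeg1, and 10.7-fold for Myl4. The 2 most abundant were Myog at 30.1 against 6.45 to 11.4 FPKM and Actc1 at 116 against 23.3 to 75.6. Of 6 erythroid genes, 5 were highest there, with Hba-a1 at 590 against 210.1 to 312 FPKM and Hbb-bs at 287 against 95 to 146, and near-identical haemoglobin copies may split reads. Of 6 fibroblast genes, 4 were highest there, with Col1a1 at 456 against 218 to 318 FPKM but Dcn at 202 against 196 to 300.3. None of 6 blood endothelial genes was highest in library 3, with Cdh5 at 22.8 against 24.4 to 31.2 FPKM and Pecam1 at 25.1 against 21.3 to 29.4. Of 6 lymphatic markers, 3 were highest there, with Ccl21a at 8.55 against 5.26 to 9.74 FPKM and Pdpn at 5.78 against 2.74 to 3.33. The 6 muscle fibre markers summed to 75318 FPKM in library 3 against 68930 to 92671. The part of these tissues, of blood or of the depth of library 3 in the levels of the myeloid genes was not tested.

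**Figure D4:**
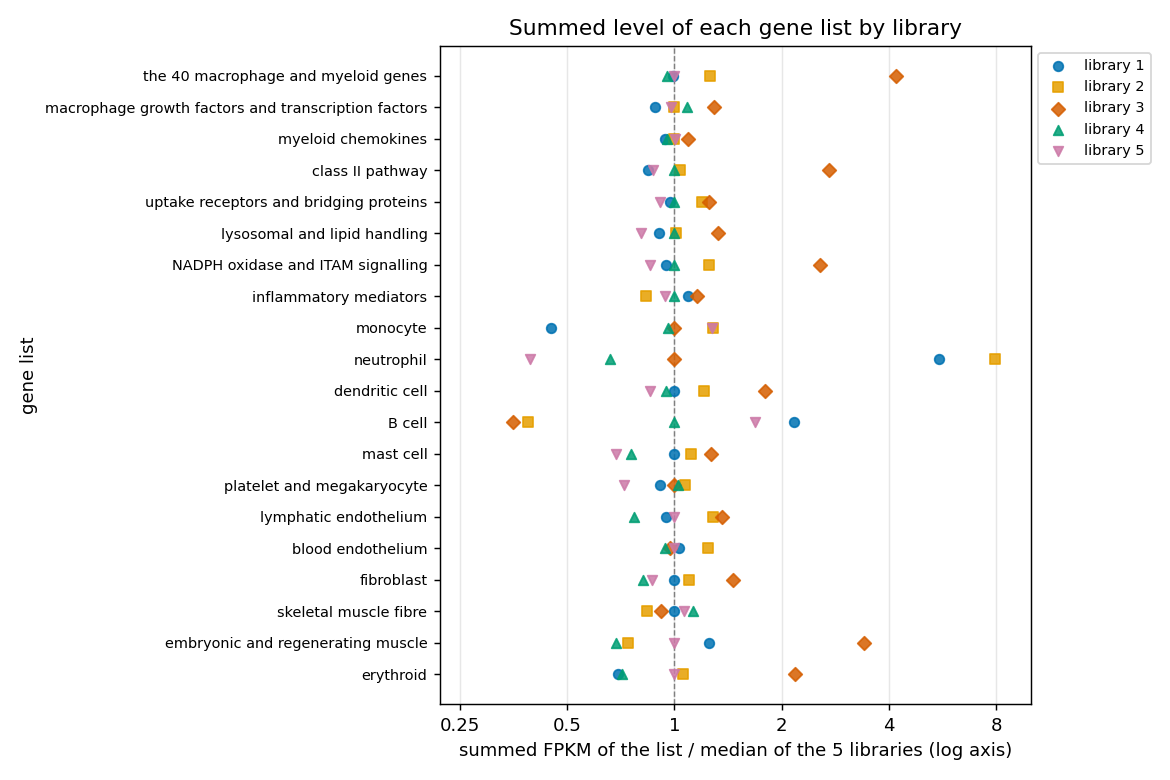
Summed FPKM of the 40 myeloid genes and of each other gene list with over 100 reads in libraries 1 and 3 together, divided by the median of the 5 libraries (log axis), with 1 symbol per library. The myeloid genes of library 3 lie farthest right among the lists it leads, above embryonic muscle and class II genes, whereas neutrophil markers are highest in libraries 1 and 2.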

How the data were processed

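Messenger RNA of about 20 mg of homogenised muscle was selected on poly-T beads and sequenced by a commercial provider, per the labels' protocols. The deposited table gives FPKM per gene and library, and the values show that the authors scaled whole reads by gene length and library total. STAR 2.5, TopHat, edgeR, HTSeq 0.6.1 and DESeq2 are listed with mm10, without roles, per the submitters' processing notes. The sources used here do not give the annotation release, strand setting or treatment of multiply matching reads, so overlapping genes on opposite strands cannot be told apart.

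Library totals were recovered as the commonest total that made the lowest genes whole reads at their annotated exon length. All 5 values of a gene were then made whole by 1 length, within 0.001 of a read, which succeeded for 20840 of 20840 genes above 0 (100%). The reads summed to 99.5% ± 0.0169 of the totals. Where fewer than 3 libraries were above 0, the length nearest the annotation was taken. Symbols and coordinates came from GENCODE M21 (GRCm38, also called mm10), matched for 34490 of 35275 identifiers.

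Levels, ratios and spread were computed on the FPKM values with a pseudocount of 1 for log2 values, using limma 3.58.1 in R 4.3.3 and Python 3.11.15 with pandas 2.3.3, numpy 2.4.6, matplotlib 3.10.9 and scipy 1.17.1. The count test foreseen for count tables was not used, since the table holds FPKM. The spread test was tested on simulated data with a seeded set of 200 genes of larger SD, and it had 4 and 3.93 degrees of freedom. All 40 members were named, with the 2 most abundant genes and the marker genes at 0 of each of 22 other lists (7 of pathways, 15 of cell type markers). Further list genes, the 4 promoter words and the filter on the other 4 libraries were chosen after their values were seen. The members, roles and lists were chosen with earlier results of these data known. Rates between libraries have exact conditional binomial intervals at 95%. Reads copied in amplification are not independent molecules, so intervals and the floor of 3 reads cover counting error only. Alternatives covered the pseudocount, scaling, the filter on low values, read counts not divided by length, transcript length and each library left out.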

Additional observations from a re-analysis of the deposited data

Results flagged for a closer look

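Among 5 libraries, a level is given here where the gap of the highest or lowest library to its neighbour exceeds 0.71 of the whole range. Chance gives this for about 1 in 20 groups, counting a gap at either end and in any library. With library 3 as the high library only, 5.57% of the 10569 genes at 1 FPKM or more in the other 4 libraries met it. These shares therefore do not count the same thing. For the myeloid genes this held for 33 of 40 at any level, each time with library 3 as the high library. At 1 FPKM or more in the other 4 libraries it held for 21 of 26.

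Of the pan-myeloid genes, Lyz2 was at 172 FPKM in library 3, Laptm5 at 24.1, Csf1r at 14.7, Adgre1 at 7.21, Itgb2 at 6.14 and Ptprc at 2.09. Of the resident markers, Pf4 was at 27.3 FPKM, Cx3cr1 at 1.74 and Ms4a7 at 1.35. Of the recruited markers, Ccl6 was at 19.2, Cd14 at 5.80, Ccl9 at 4.31, Itgam at 4.30, Ccl2 at 3.34 and Ccr2 at 2.14. Among phagocytic genes, C1qa was at 58.4, Cd68 at 35.3, C1qc at 32.4, C1qb at 28.1, Tyrobp at 19.0, Fcer1g at 13.3, Mpeg1 at 10.8, Fcgr3 at 9.97, Cybb at 4.16, Fcgr1 at 2.76 and Msr1 at 0.955 FPKM. Lgals3 was at 24.2, Gpnmb at 11.8 and Trem2 at 2.19 FPKM. Cd74 was at 77.2, Ctss at 28.8, H2-Ab1 at 16.3 and H2-Aa at 3.28 FPKM. The 7 genes outside this set were Aif1, Spp1, Mrc1, Cd163, Lyve1, Folr2 and Timd4, of which 5 are resident markers.

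Of the 20 ratios at a pseudocount of 1, 4 had such a gap, which was not recomputed at 0.1. The log2 ratio of Cd68 to C1qa was high in library 3 (-0.71). The ratios of H2-Aa to H2-Ab1 (-2.01) and of Ccl9 to Ccl6 (-1.93) were low there. The ratio of Fcer1g to Tyrobp was high in library 1 (0.15).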

How the results depend on the processing

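With median-of-ratios scaling, 31 of 31 members at 1 FPKM or more stayed highest in library 3. Of these, 5 reached that mean only through library 3. Unscaled, 36.2% of genes at 1 FPKM or more in the other 4 libraries were highest there. All 40 members were highest in library 3, so the pseudocount, the filter or leaving out another library could not change this. Those counts, 31 at a pseudocount of 0.1, 40 with no filter and 7 at 10 FPKM or more, only give the genes tested. So does the count of 32 with each other library left out. The order could not be recomputed without library 3. The library scaling factors ranged from -0.16 to 0.10 on the log2 scale. The count of members past the spread test was 0 under 9 other settings, each library left out among them, and 31 in the chi-square test, which was added after seeing the data and asks only for more than counting error.

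Of 180 recomputed ratios, 175 kept their direction. The ratio of Cx3cr1 to Ccr2 had a mean of -0.224 in reads not divided by length and -0.0450 at principal transcript lengths, and was -0.0436 without library 4 and -0.0117 without library 2, the highest such value being 0.0509 when library 3 was dropped. That of Itgb2 to Itgam was -0.0555 in reads not divided by length. The log2 elevation of library 3 over the other libraries, added after seeing the data, was 2.23 for pan-myeloid, 2.25 for phagocytic and 2.65 for recruited markers. With a pseudocount of 1 added it was 1.64, 1.56 and 1.46, since the pseudocount shrinks ratios of low genes, and it was 1.98 for recruited markers at 1 FPKM or more. The other 38 such values moved by less than the spread of the 4 libraries. The median of the member means was 3.78 FPKM, 2.19 without library 3 and 3.97 to 4.26 without another library. No paired analysis was possible because the study has 1 group.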

Other observations

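Transcripts of the neutrophil granule enzymes Elane and Mpo were seen in 2 of the 5 libraries. Elane, the neutrophil elastase, was at 2.42 and 3.17 FPKM in libraries 1 and 2 and at 0 in libraries 3, 4 and 5, and Mpo, the myeloperoxidase, was at 1.73 and 2.61 FPKM in libraries 1 and 2 and at 0 in the others. S100a8 was at 0.890, 1.10, 0, 0.321 and 0 FPKM in libraries 1 to 5. Libraries 3 and 5 thus had 0 reads of all 3, which allows up to 3 reads each.

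Ighm, the heavy chain constant gene of immunoglobulin M, was at 113, 19.5, 17.9, 51.6 and 87.4 FPKM in libraries 1 to 5. Cd79a was at most 0.222 FPKM and Pax5 was at 0 in all libraries. Library 3 was lowest for Ighm.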
